A study of Pinus pinaster with 24 samples.

Results

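Roots of sulfur-starved maritime pine (Pinus pinaster) seedlings were compared 1 day after a sulfate pulse. They make up 6 of the 24 libraries of a study of 4 organs, chosen by their organ label, with 3 libraries from roots given 0.5 mM K2SO4 and 3 from roots given 1 mM KCl as control. Seedlings of the Segura-Alcaraz provenance grew in vermiculite, and both groups had received 0.3 mM KNO3 weekly for 3 months before the pulse. They were 4 months old when roots were frozen, 24 h after that last watering. Each library is a pool of 13 to 14 seedlings, called a biological replicate in the labels. Both salts bring the same amount of potassium, so the groups differ in chloride as well as in sulfate. Roots that were never starved were not analysed here.

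Roots take up sulfate from the soil through membrane transporters and pass part of it to the shoot. ATP sulfurylase activates sulfate, APS reductase and sulfite reductase reduce it, and the sulfide is built into cysteine, from which methionine and glutathione are made. In Arabidopsis, lack of sulfur raises the transcripts of sulfate transporters, of APS reductase and of starvation genes such as SDI1 and the LSU family, and new sulfate lowers them again. The features measured in pine carry identifiers only, which the files do not pair with gene names, so none of these genes could be looked up and no known function is given for any feature below. For the same reason the organ label could not be checked against marker genes.

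Poly(A) RNA was read as pairs of 150 bp, and the authors deposited levels as CPM after a scaling of library sizes (normalized CPM below). A root library held 92664463 to 104403811 reads, and 3 reads, taken as the floor, correspond to 0.0240 to 0.0268 normalized CPM. Of 67271 features listed, 60398 reached 1 normalized CPM in at least 3 of the 6 root libraries and were tested with limma on log2(level + 0.5), a scale on which the change of low features is understated. Replicates ranked features alike, with Spearman correlations of 0.980 to 0.983 among sulfate roots, 0.974 to 0.977 among control roots and 0.956 to 0.976 between treatments. The median within-group SD of a feature was 0.10 on the log2 scale in sulfate roots and 0.13 in control roots. The first principal component held 44.0% of the variance and parted the treatments, with scores of -39.4, -34.1 and -20.5 in sulfate roots 1 to 3 against 18.1, 47.1 and 28.8 in control roots 1 to 3.

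Among the features that passed the test, sulfate lowered more than it raised, and lowered them further. In sulfate roots 835 features (1.38% of those tested) were lower and 294 (0.487%) higher than in control roots, together 1.87%, so 74.0% of the changes were falls (limma, Benjamini-Hochberg adjusted p under 0.05). On simulated data this fit called somewhat more unchanged features than its threshold allows. Falls had a median of -0.94 on the log2 scale, with quartiles at -1.25 and -0.71. Rises were smaller, with a median of 0.61 and quartiles of 0.49 and 0.74. At least 2-fold, 356 features fell (0.589% of those tested) and 14 rose (0.0232%), and at least 3-fold, 63 fell and 3 rose. Over all features tested the median change was 0.01. In whole roots, fewer cells of a type and less RNA per cell cannot be told apart. The balance was different at a looser threshold. At an unadjusted limma p under 0.05, 4152 of the 60398 features tested were lower and 4611 higher with sulfate, the calls included. Of all features tested, 53.6% had a positive change. By overlap alone, the 3 sulfate values lay wholly below the 3 control values for 9.32% of features and wholly above for 10.6%. Both looser lists include features that pass by chance, and how many was not tested.

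The number of calls depended on single libraries. Without sulfate 1, sulfate 2 or control 2 there were 279, 331 and 447 falls and 54, 61 and 117 rises. Rises also came to 151 without sulfate 3. Falls of at least 2-fold numbered 178, 205 and 223 without sulfate 1, sulfate 2 or control 2. Rises of that size numbered 9 without sulfate 2, 22 without sulfate 3 and 45 without control 1. Of the 835 falls 232, and of the 294 rises 35, passed in each of the 6 sets that leave out a library. The 232 falls that always passed had a median of -1.14 and the 35 rises a median of 0.73 on the log2 scale.

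**Figure D1:**
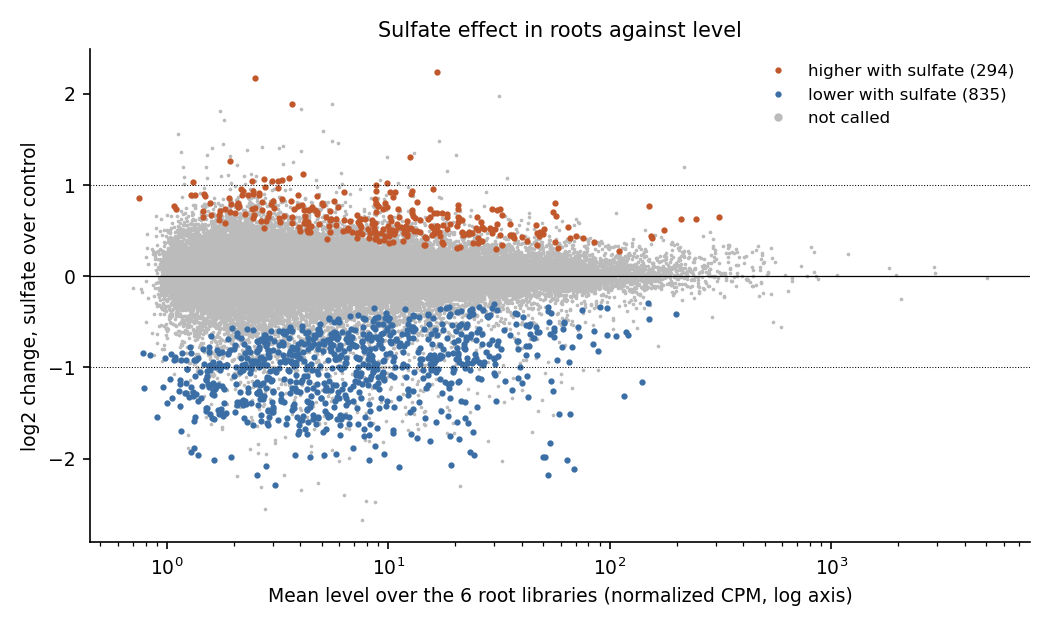
Each point is 1 of 60398 features in roots, with its mean level over 6 libraries in normalized CPM on a log axis and its log2 change, sulfate over control, on the vertical axis; dotted lines mark 2-fold. Features that rose (294) are orange, features that fell (835) blue and the rest grey, and the blue points reach below -2 while few orange points pass 1.

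The features that changed took a small part of the root transcriptome. Those that fell took 0.858%, 0.911% and 0.954% of the reads in sulfate roots 1 to 3, against 1.62%, 1.88% and 1.62% in control roots 1 to 3. Those that rose took 0.783%, 0.798% and 0.749% in sulfate roots and 0.538%, 0.504% and 0.529% in control roots. Both sets were picked on these libraries, so the shares describe them and do not test them. Among the 835 falls, the 10 with the largest differences in mean level carried 11.3% of the summed difference. Among the 294 rises, the 10 largest carried 30.4%. The sets differ in size, so these shares do not show which set was more concentrated. Of the 100 features with the most reads in roots, 1 changed (a rise), beside 1.87% of all features tested, a count too small to set them apart. Together the 100 took 7.30% of the reads with sulfate and 7.12% in control. For all 100 the 95% interval of the log2 change lay within -1 and 1.

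For most of the root transcriptome a change of 2-fold or more lay outside the interval. The 95% interval of the log2 change fell within -1 and 1 for 95.6% of features and within 1.5-fold for 82.1%. A further 325 features differed by at least 2-fold in value without passing the test, of which 277 were lower and 48 higher with sulfate. No tested feature was switched fully on or off at this depth: the number with at most 3 reads in every library of a treatment and more than 3 in every library of the other was 0 in both directions.

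The interval of the change was narrower among features with higher levels. Among features with a mean under 2 normalized CPM, 1.11% fell and 0.226% rose, with a median fall of -1.17, and the interval reached 0.35 log2 units to either side of the estimate (median). Between 20 and 100 normalized CPM, 1.66% fell and 0.680% rose, the median fall was -0.76 and the half-width 0.17. Above 100 normalized CPM, 8 features of 862 fell and 8 rose (0.928% each), against 1.38% and 0.487% of all features tested. With so few features this balance is uncertain. Rises of at least 2-fold were found among features under 20 normalized CPM only, in this fit: 2 under a mean of 2, 9 between 2 and 5 and 3 between 5 and 20.

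Features whose mean reached 20 normalized CPM in the higher group were named by the size of their change, 2 in each direction. PpCO2_95002 had the largest rise of all features tested on this scale. Its level was 31.1, 30.2 and 21.3 normalized CPM in sulfate roots 1 to 3, against 4.66, 7.39 and 4.41 in control roots 1 to 3. Every sulfate pool lay far above every control pool, and sulfate 3 was the lowest of the sulfate pools. The log2 change was 2.24 ± 0.21 (SE; adjusted p = 0.00468 by limma with Benjamini-Hochberg), with a 95% interval of 1.75 to 2.74. This transcript was far more abundant above ground, at 358 ± 52 normalized CPM in sulfate stem against 61.0 ± 28.6 in control stem and 509 ± 148 in sulfate needles against 188 ± 117 in control needles (SD, n = 3 each). In cotyledons it had 139 ± 41 normalized CPM with sulfate and 91.9 ± 37.9 in control (SD, n = 3 each). It passed the test in none of these organs (limma, Benjamini-Hochberg adjusted p = 0.0821 in stem, 0.604 in needles and 0.707 in cotyledons), and its difference between roots and the shoot organs had an interval of -0.54 to 1.72.

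Since PpCO2_95002 was far higher in the shoot, features found mainly in the shoot were summed in the root libraries. The 14 features at least 32-fold higher in control stem than in roots came to 67.6, 79.2 and 66.4 normalized CPM in sulfate roots and 57.7, 55.6 and 53.6 in control roots, without overlap. The like sum of 186 needle features was 653 ± 25 in sulfate roots and 623 ± 30 in control roots, and that of 162 cotyledon features 692 ± 25 and 672 ± 40 (SD, n = 3 each), and both overlapped. The 86 features at least 8-fold higher in every shoot organ than in roots came to 400 ± 16 in sulfate roots and 354 ± 27 in control roots, without overlap. The part of shoot RNA in the root changes was not tested.

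PpCO2_50766 had 21.98, 20.3 and 20.999 normalized CPM in sulfate roots, against 10.99, 9.72 and 11.2 in control roots. The pools of a treatment differed little and the groups were well apart. The log2 change was 0.96 ± 0.08 (SE; adjusted p = 0.00135 by limma with Benjamini-Hochberg), the second largest rise at this depth, and all 5 features of its run of neighbouring identifiers rose. It also rose in needles, with 15.3 ± 1.3 normalized CPM with sulfate against 8.67 ± 0.59 in control (SD, n = 3 each; limma, Benjamini-Hochberg adjusted p = 0.0201). In stem its log2 change was 0.39 and in cotyledons 0.68, and neither passed (limma, Benjamini-Hochberg adjusted p = 0.113 and 0.311).

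PpCO2_94078 had 12.01, 20.02 and 24.1 normalized CPM in sulfate roots, against 64.5, 121 and 72.7 in control roots. All sulfate pools were below all control pools, but control 2 was well above the other controls. The log2 change was -2.17 ± 0.33 (SE; adjusted p = 0.0385 by limma with Benjamini-Hochberg), and it passed in only 1 of the 6 sets that leave out a library, the one without sulfate 3. Without a library the estimate ran from -2.38 to -1.89 and limma's adjusted p (Benjamini-Hochberg) from 0.0445 to 0.119. Of the 5 tested members of its run of neighbouring identifiers, 2 were called lower, itself included. The transcript was mainly one of roots, at 2.44 ± 0.25 normalized CPM in sulfate stem and 7.82 ± 5.51 in control stem (SD, n = 3 each) and too low for the filter in needles and cotyledons.

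PpCO2_106662 had 6.82, 7.59 and 6.80 normalized CPM in sulfate roots, against 31.6, 33.3 and 29.0 in control roots. Pools of a treatment agreed closely, and the log2 change of -2.07 ± 0.08 (SE) had the lowest adjusted p in roots, which it shared with 3 other members of its run, PpCO2_106659, PpCO2_106664 and PpCO2_106665 (limma, Benjamini-Hochberg adjusted p = 1.89e-05). The fall was deeper in stem, where 0.533 ± 0.078 normalized CPM with sulfate stood against 26.9 ± 6.1 in control (SD, n = 3 each), a log2 change of -4.71 ± 0.17 (SE; adjusted p = 0.000589 by limma with Benjamini-Hochberg). It also fell in needles (log2 change -2.36) and cotyledons (-2.69), where the difference from roots did not pass (limma, Benjamini-Hochberg adjusted p = 0.663 and 0.517).

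**Figure D2:**
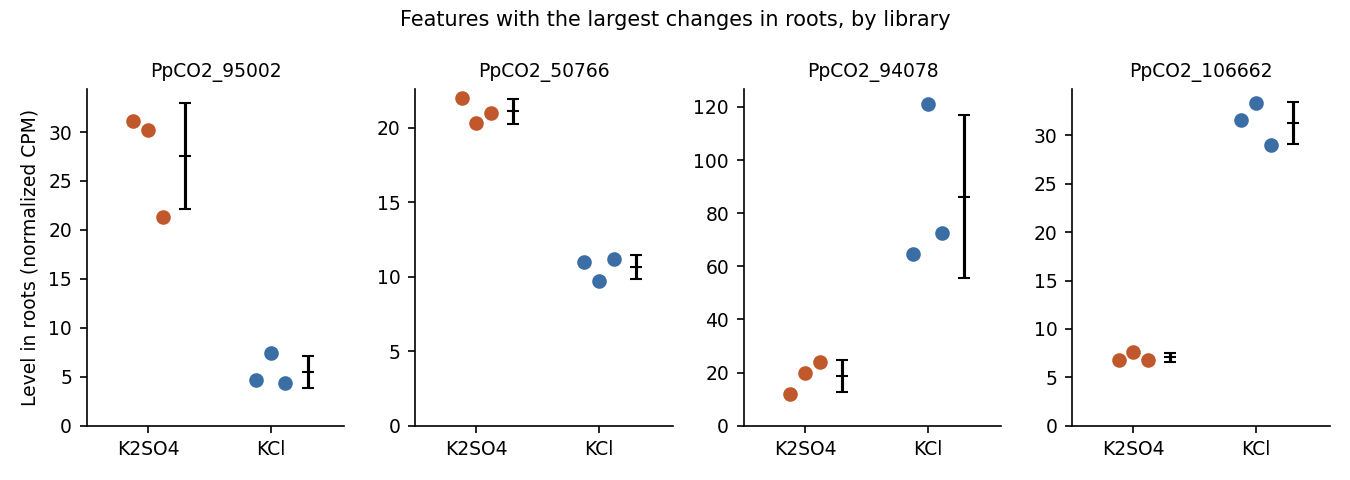
Levels of 4 features in normalized CPM (vertical axes, each from 0) in the 3 K2SO4 and 3 KCl root libraries; points are libraries 1 to 3 from left to right, and bars give the mean and SD. Only features whose groups do not overlap could be named; PpCO2_94078 has the widest spread, with control 2 at 121.

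Most features tested lay in runs of identifiers with adjacent numbers and correlated levels, which may be copies, fragments or variants of 1 gene, so features are not independent counts. Counted by run, the 835 falls lay in 515 runs and the 294 rises in 221. Of the falls 72.2% and of the rises 68.7% were in a run with at least 2 members tested, close to the 65.3% of all features tested. Of 2079 runs with at least 5 members tested, 22 had at least 5 falls and 4 at least 5 rises; how many would be found by chance was not tested. The largest, with 21 members tested, fell in all 21 (limma), with log2 changes of -1.70 to -1.40. Its summed level was 33.9, 41.7 and 33.1 normalized CPM in sulfate roots and 128.8, 123.2 and 126.2 in control roots. The run of PpCO2_106662 had the deepest median fall of the 22, -1.94, and fell in all 10 members, to sums of 86.1, 100.1 and 86.9 normalized CPM in sulfate roots, against 388, 365 and 353 in control roots. In the 4 rising runs the medians were 0.52 to 0.92, and each had 5 to 7 members called of 5 to 9 tested. Members of a run were joined by their correlation over libraries that include these, so their common direction is no separate evidence. Reads shared between close copies may have been split by the authors' counting, so single members of a run are uncertain in that respect.

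**Figure D3:**
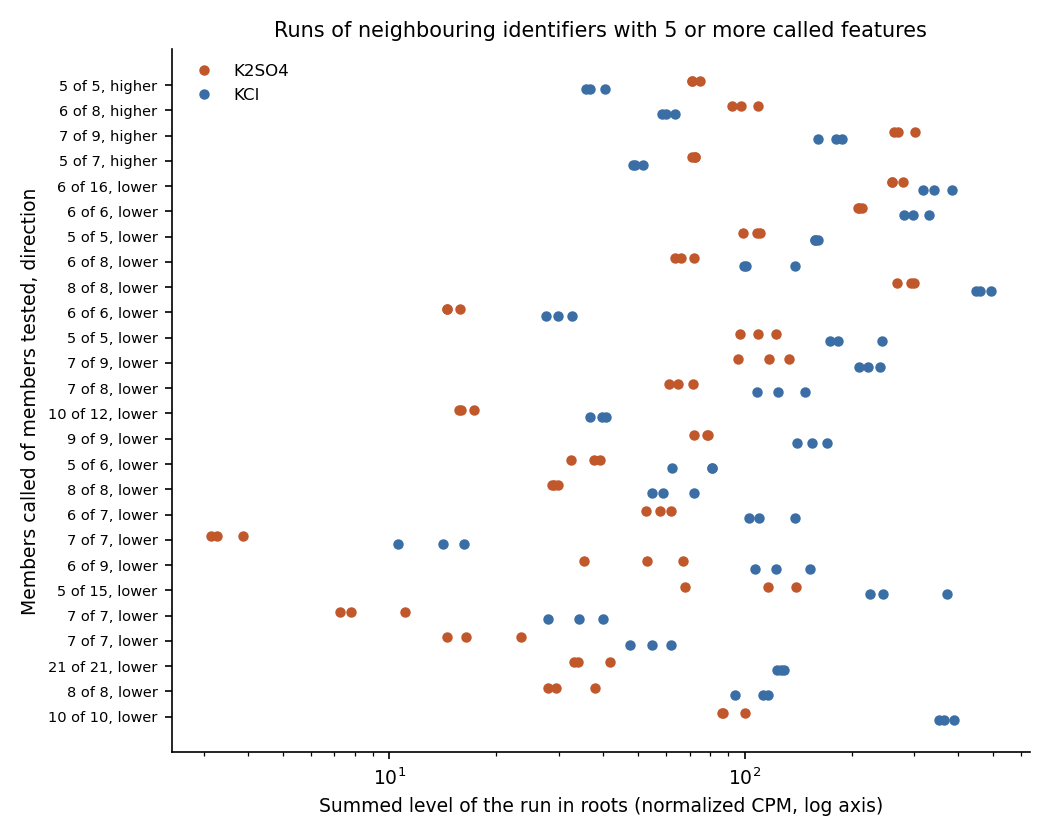
Summed level in roots of each run of neighbouring identifiers with 5 or more called features (normalized CPM, log axis), with 1 point per library in orange for K2SO4 and blue for KCl; row labels give members called of members tested and their direction. The 22 falling runs have all K2SO4 points left of the KCl points, and the 4 rising runs at the top have them to the right; the runs were picked on these libraries.

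Rises made up a larger share of the features that were mainly found in roots, a difference in share that was not tested. Of 882 features at least 8-fold higher in roots than in the controls of every shoot organ, 31 rose (3.51%) and 13 fell (1.47%), against 0.487% and 1.38% of all features tested. The log2 ratio of roots over the mean of the shoot controls had a median of 0.82 in features that rose. It was -0.08 in those that fell and 0.05 in all features tested. The root level in this ratio and in the 8-fold class includes the sulfate libraries, while the shoot level does not. The change by which features were called therefore raises the ratio of rises and lowers that of falls. Whether rises and falls differed in this ratio among control libraries alone was not tested. Below the filter in all 3 shoot organs were 48 of the 294 rises and 78 of the 835 falls, against 3038 of all 60398 features.

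The features picked in roots were then followed in the 18 libraries of the shoot organs, which had no part in choosing them. Features that fell at least 2-fold in roots were lower with sulfate there too: their median log2 change was -1.43 in stem (292 features tested there), -1.56 in needles (256) and -1.13 in cotyledons (257), beside medians of 0.01, -0.01 and -0.01 for all features tested in both organs. Features that fell by less than 2-fold in roots had medians of -0.42 in stem, -0.32 in needles and -0.28 in cotyledons. Features that rose in roots had medians of 0.18 in stem, 0.02 in needles and 0.36 in cotyledons, and 68.8%, 52.9% and 80.9% of them were above 0, against 52.1%, 47.5% and 47.8% of all features. Of the 835 root falls 251 (30.1%) were also called lower in at least 1 shoot organ, where 343 (0.568%) of the features tested in roots were so called. Of the 294 root rises, 14 (4.76%) were also called higher in a shoot organ, beside 0.151% of the features tested in roots. Libraries with the same number may share seedlings across organs, so the organs are not separate support.

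**Figure D4:**
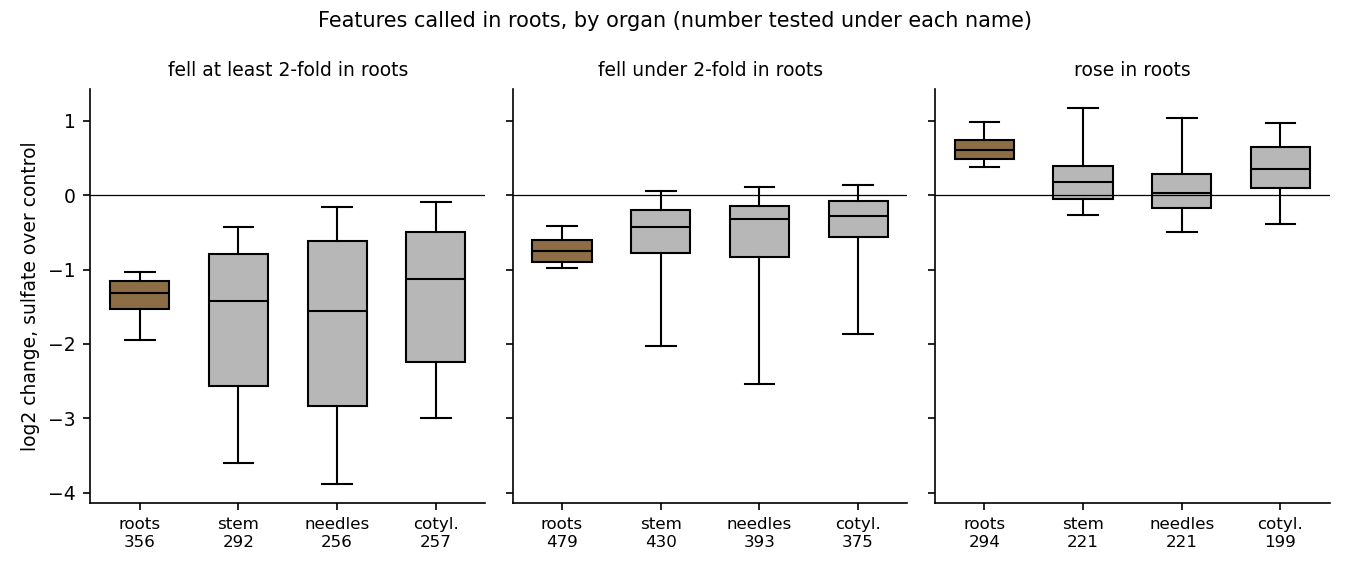
Log2 change, sulfate over control, of features called in roots, shown in roots (brown) and in stem, needles and cotyledons (grey), with the number tested under each name; boxes span the quartiles with a line at the median, and whiskers the 5th to 95th percentile. Features that fell at least 2-fold in roots have medians of -1.43, -1.56 and -1.13 in the shoot organs, and features that rose have medians of 0.18, 0.02 and 0.36; the root boxes are set by the choice of features.

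Whether the sulfate effect in roots differed from that in the shoot was tested directly, as the change in roots minus the mean change in stem, needles and cotyledons. Of 47248 features that passed the filter in every organ, 124 (0.262%) had a higher change in roots and 12 (0.0254%) a lower one (limma over 24 libraries, Benjamini-Hochberg adjusted p under 0.05). Counted by run of neighbouring identifiers, the 124 lay in 55 runs and the 12 in 10. Of the 579 root falls among them, the difference passed for 94 that fell less in roots and 9 that fell more; of the 183 root rises it passed for 8, all higher in roots. The 124 can be split by their sign in roots. In 108 the level was lower with sulfate in roots too, by a median of -1.13 against -2.55 in the shoot organs. All 108 were called lower in at least 1 shoot organ, as were 320 of the 47248 features tested. The 108 were picked on a difference that includes these shoot changes, so that count is no separate evidence. In the other 16 the root change was positive, with a median of 0.47, against -0.29 in the shoot organs, and 8 of them were called higher in roots. The 12 with a lower change in roots had medians of -0.60 in roots and 0.05 in the shoot organs, and 9 of them fell in roots. Against single organs, the higher and lower differences numbered 119 (0.252%) and 13 (0.0275%) for needles, 67 (0.142%) and 1 (0.00212%) for stem, and 25 (0.0529%) and 9 (0.019%) for cotyledons.

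The count of 12 was small and unstable. Without a single root library it ran from 1 (without control 2) to 28 (without control 1), being 3 without sulfate 1, sulfate 2 or control 3 and 4 without sulfate 3. The count of 124 became 70 without sulfate 2, 76 without control 3 and 80 without sulfate 1. With roots and shoot organs paired by replicate number, 157 features had a higher and 39 a lower change in roots.

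**Figure D5:**
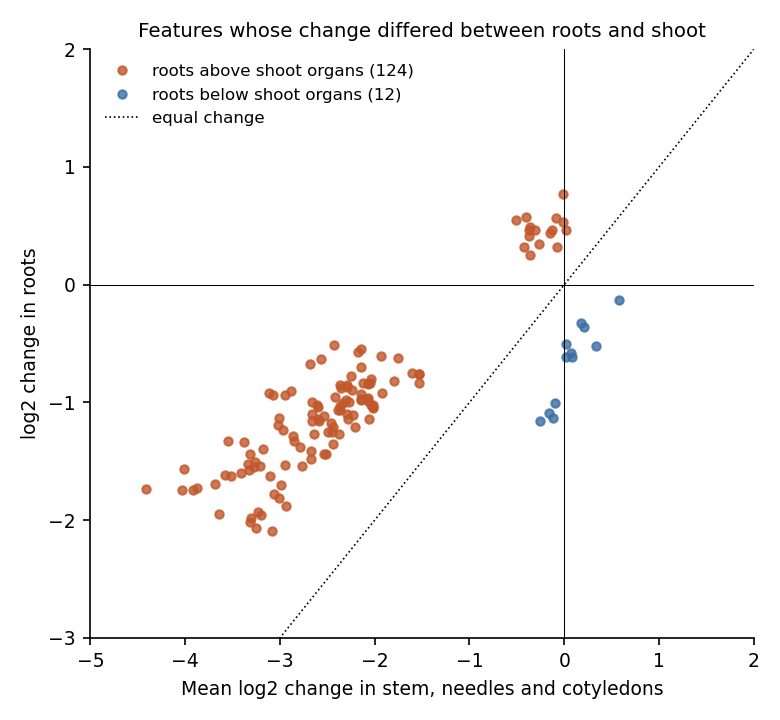
Log2 change in roots (vertical) against the mean log2 change in stem, needles and cotyledons (horizontal) for the 136 features whose change differed; the dotted line marks equal change. Most of the 124 orange points have both changes below 0 and lie above the line, 16 have a positive root change, and the 12 blue points lie below the line, at -1.16 to -0.13 for roots and -0.26 to 0.58 for the shoot; the features were picked on this difference.

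Features of this comparison were named by the same rule, among those that also passed in roots. PpCO2_37581 had 37.7, 49.1 and 33.1 normalized CPM in sulfate roots, against 87.8, 73.5 and 65.9 in control roots, a log2 change of -0.92 ± 0.15 (SE; adjusted p = 0.0325 by limma with Benjamini-Hochberg). In needles it stood at 18.2 ± 6.1 with sulfate and 212 ± 54 in control, and in stem at 6.16 ± 1.36 and 82.6 ± 24.1 (SD, n = 3 each). In cotyledons it had 39.3 ± 14.2 with sulfate and 187 ± 66 in control (SD, n = 3 each), a change that did not pass (log2 change -2.22; limma, Benjamini-Hochberg adjusted p = 0.144). The root change was higher than the mean of the 3 shoot organs by 2.20 ± 0.36 (SE; adjusted p = 0.00546 by limma with Benjamini-Hochberg). Taken organ by organ, it passed against stem and needles (limma, Benjamini-Hochberg adjusted p = 0.0137 and 0.00716) but not against cotyledons (log2 difference 1.30, adjusted p = 0.552). Its mean was 40.0 ± 8.2 normalized CPM in sulfate roots and 75.7 ± 11.1 in control roots (SD, n = 3 each), so control roots and control stem stood at a like level and sulfate roots above sulfate stem; levels set across organs rest on the authors' scaling.

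PpCO2_136229, from the run of 8 that fell in all its members in roots, had 7.25, 10.8 and 7.44 normalized CPM in sulfate roots, against 32.6, 31.4 and 24.5 in control roots, a log2 change of -1.75 ± 0.17 (SE; adjusted p = 0.00385 by limma with Benjamini-Hochberg). It fell to 2.58 ± 0.19 in sulfate needles, against 63.4 ± 10.5 in control needles (SD, n = 3 each; log2 change -4.36 ± 0.13; limma, Benjamini-Hochberg adjusted p = 0.00012). Its log2 change was -3.52 in stem and -3.86 in cotyledons, and it fell in both (limma, Benjamini-Hochberg adjusted p = 0.00479 and 0.000173). The difference, roots minus shoot, was 2.17 ± 0.22 (SE; adjusted p = 0.000196 by limma with Benjamini-Hochberg), and it passed against each of the 3 organs (adjusted p = 8.23e-05 to 0.0085). The root level of this feature was above the needle level with sulfate and below it in control.

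In the other direction stood PpCO2_76120, with 15.1, 16.3 and 16.8 normalized CPM in sulfate roots, against 31.7, 42.9 and 33.5 in control roots, and a log2 change of -1.13 ± 0.11 (SE; adjusted p = 0.00308 by limma with Benjamini-Hochberg). All 4 tested members of its run fell in roots. In cotyledons it had 19.1 ± 5.8 normalized CPM with sulfate and 14.5 ± 2.5 in control, and in needles 17.5 ± 1.0 and 19.6 ± 2.2 (SD, n = 3 each). In stem it had 37.9 ± 1.0 with sulfate and 56.4 ± 10.3 in control (SD, n = 3 each), a log2 change of -0.55, of the same sign as in roots. No change passed in these organs. The difference from their mean was -1.01 ± 0.20 (SE; adjusted p = 0.0283 by limma with Benjamini-Hochberg). Organ by organ it passed against cotyledons (limma, Benjamini-Hochberg adjusted p = 0.0208), but not against needles (0.146) or stem (log2 difference -0.58, adjusted p = 1.00). The difference from the mean passed without control 1 (limma, Benjamini-Hochberg adjusted p = 0.0362) and was lost without any other single root library (0.0711 to 0.152).

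PpCO2_42355 had 84.9, 82.6 and 87.0 normalized CPM in sulfate roots, against 143, 225 and 213 in control roots. The sulfate pools were nearly equal, while control 1 lay below the other controls. The log2 change in roots was -1.16 ± 0.16 (SE; adjusted p = 0.0171 by limma with Benjamini-Hochberg). In stem its mean was 113 ± 22 with sulfate and 154 ± 6 in control (SD, n = 3 each), a change that did not pass (limma, Benjamini-Hochberg adjusted p = 0.279). Its log2 change was -0.26 in needles and -0.06 in cotyledons, and neither passed. Against single organs the difference did not pass (limma, Benjamini-Hochberg adjusted p = 0.0929 to 0.799). The difference from the mean of the organs, -0.90 ± 0.18 (SE; adjusted p = 0.0334 by limma with Benjamini-Hochberg), was also lost without any single root library other than control 1, and with libraries paired by replicate number (limma, Benjamini-Hochberg adjusted p = 0.265; 0.00338 to 0.265 over its alternatives).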

How the data were processed

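The authors deposited a signal for 67271 features in 24 libraries, presented as CPM. Columns do not have the equal sums of plain CPM, so library sizes had been scaled in some way. Of tools, bcl2fastq and BWA are named in the submitters' processing notes; how reads were counted, on which transcripts, and how values were scaled or filtered is not given in the sources used here. Strand is not stated either, so overlapping transcripts cannot be told apart. Every value of the root libraries was a whole multiple of its library's step within 0.01 of a read (100%), so reads could be recovered. Between 58.0 and 69.3% of counts of 1 to 20 reads were even, so both mates may have been counted, and floors cover counting error only. Replicate root libraries differed above sampling noise (chi-square per feature 12.2 to 23.2). The p-values rest on the spread between 3 pools a treatment.

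Features reaching a value of 1 in 3 or more of the 6 root libraries were tested with limma 3.58.1 (lmFit, eBayes with trend and robust options; R 4.3.3) on log2(value + 0.5), with Benjamini-Hochberg adjustment over all of them and a threshold of 0.05. The plan assumed plain CPM; the scaled signal takes the same test. Roots were set against the shoot organs in a fit of 24 libraries. Features were named among those with adjusted p under 0.05, no overlap between the groups and a higher group averaging 20 or more, as the 2 largest changes each way, skipping identifiers within 10 of one already taken. Runs joined identifiers with numbers 1 or 2 apart whose levels correlated (Pearson) above 0.8 over the 24 libraries. The features, lists and rules were chosen with earlier results of these data known. Gene lists for sulfur metabolism were planned but could not be matched. On recovered reads edgeR 4.0.16 (quasi-likelihood test) called 804 features lower and 248 higher. Results were also computed with pseudocounts of 0.1 or 2, without the filter or at a minimum of 5, after median-ratio rescaling, in a fit of all libraries, with the replicate number as a block and without each root library. The fits were tested on simulated data, where the root fit called somewhat more unchanged features than its threshold allows. Figures were drawn with matplotlib 3.10.9.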

Additional observations from a re-analysis of the deposited data

Results flagged for a closer look

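Differences of the sulfate effect between roots and the shoot organs were called by a test of the difference itself (limma over 24 libraries, Benjamini-Hochberg adjusted p under 0.05). They numbered 124 features with a higher and 12 with a lower change in roots. Of the features named in the text, the log2 difference, roots minus the mean of the shoot organs, was 2.20 for PpCO2_37581, 2.17 for PpCO2_136229, 1.18 for PpCO2_106662, -1.01 for PpCO2_76120 and -0.90 for PpCO2_42355. PpCO2_106662 differed from stem (2.64, limma, Benjamini-Hochberg adjusted p = 4.51e-07), and its differences from needles (0.29) and cotyledons (0.62) did not pass (adjusted p = 0.663 and 0.517).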

How the results depend on the processing

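Leaving out each root library gave 279 to 919 falls, 54 to 404 rises, 178 to 405 falls and 9 to 45 rises of at least 2-fold, and 1 to 28 lower and 70 to 123 higher differences from the shoot. A pseudocount of 0.1 gave 30 rises of at least 2-fold. A pseudocount of 2 gave 154 falls and 4 rises of that size. With a minimum of 5, which tests 32246 features, 542 fell, 205 fell and 5 rose at least 2-fold, and 7 lower and 62 higher differences were called, with PpCO2_42355 below the filter. Rises of at least 2-fold numbered 25 in the fit of 24 libraries and 32 by edgeR, and 22 lower differences were called without stem. The share of features with an interval within -1 and 1 was 93.0 to 98.1% under 7 alternatives added after the data were seen. Which features were called moved more than the counts: of the 835 falls and 294 rises, 448 and 105 were also among the 667 and 309 called in the fit of 24 libraries, and 781 and 246 among the 804 and 248 called by edgeR. Under the alternatives that keep all 6 root libraries no direction of a named feature reversed. The naming rule asks for groups without overlap, which all but fixes the direction in roots there and fixes it without a library. The differences from the shoot were also picked on these libraries, so kept directions are no separate evidence. Rescaling moved the median change of all features from 0.013 to 0.004.

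The replicate number as a block gave 892 falls and 330 rises, of which 690 and 202 were shared with the fit without it, and, at least 2-fold, 379 falls and 23 rises. Deviations of same-numbered sulfate and control roots correlated by 0.06, 0.07 and -0.04, and those of differently numbered ones by -0.17 to 0.11. With 3 libraries a treatment, these values cannot decide whether the numbers pair them. Same-numbered roots and shoot libraries of a treatment correlated by 0.07 to 0.41, and pairing them gave 39 lower differences, with PpCO2_42355 no longer called (limma, Benjamini-Hochberg adjusted p = 0.265).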

Other observations

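Control root pools differed from each other more than sulfate root pools did. On the second principal component, which held 18.5% of the variance, control 3 scored -42.3 and control 2 24.0, while sulfate 1 to 3 scored -8.42, 12.2 and 2.37. Median absolute deviations from the group mean were 0.064, 0.071 and 0.067 on the log2 scale in sulfate roots 1 to 3 and 0.081, 0.086 and 0.094 in control roots 1 to 3. Whether the spread differed between treatments was not tested.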
